A study of Homo sapiens with 24 samples.

Results

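A list of 10 genes, of the 19775 measured, marks the luminal identity of urothelium, the epithelium that lines the bladder. They were taken by name and comprise the uroplakin genes UPK1A, UPK1B, UPK2, UPK3A and UPK3B, the keratin gene KRT20 and the transcription factor genes GATA3, FOXA1, ELF3 and GRHL3. Of 16 probe sets annotated to them, each gene is given by the 1 that was brightest on average. All members had a probe set, and no filter on low values was applied.

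RNA came from RT112, a human bladder cancer line with an FGFR3-TACC3 fusion gene. By their labels the cells held a hairpin that doxycycline switches on, aimed either at FGFR3 (lines 2-4, 4-1 and 6-16) or, as a control, at EGFP, a jellyfish gene. All were kept in medium with 1% serum for 48 h, either with doxycycline at 1 µg/ml, which induces the hairpin, or without it. This gave 8 labelled groups of 3 arrays, and the labels do not say whether the 3 came from separate cultures or whether a line was 1 clone, so the p-values measure only the spread between these arrays.

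Luminal urothelial cells cover the bladder surface with rigid plaques built from uroplakins. The tetraspanins UPK1A and UPK1B pair with UPK2 and with UPK3A or UPK3B before they leave the endoplasmic reticulum. KRT20 is a keratin of the superficial umbrella cells. GATA3 and FOXA1 are transcription factors that maintain the luminal state, ELF3 is an ETS factor of differentiated epithelia, and GRHL3 is a grainyhead factor needed for terminal differentiation of umbrella cells in mice. Basal urothelial cells instead carry keratins such as KRT5.

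Values are log2 expression after the authors' normalization, and the array medians lay between 6.98 and 7.08. A pair of members was dim: UPK3A lay between 6.96 and 7.43, at the level of the array medians, and KRT20 between 5.25 and 7.45. The other 8 members lay above the median on every array. So did the basal urothelial genes KRT5 at 10.24 to 12.49 and CD44 at 12.13 to 12.91. ITGB4 at 11.61 to 12.43, CDH3 at 11.20 to 11.98, EGFR, ITGA6 and LAMB3 did as well. The other measured basal genes were dimmer. KRT14 lay at 5.49 to 7.38, KRT16 at 5.99 to 7.14, DSG3 at 6.49 to 6.95 and NGFR at 7.01 to 8.26. With bright and dim genes of both kinds, these levels alone do not set a luminal apart from a basal state. Of the epithelial markers, EPCAM lay between 12.73 and 13.05 and CDH1 between 12.46 and 13.07. Markers of other cells were mixed. Of the leukocyte genes, PTPRC lay at 5.60 to 5.97, TYROBP at no more than 5.77, LYZ at 5.83 to 7.10, CD3D at 6.73 to 7.11 and CD79A at 8.15 to 8.72. Of the fibroblast genes, LUM lay at 12.84 to 13.56, COL1A1 at 9.02 to 9.39, DCN at 8.02 to 8.50, and COL1A2, COL3A1 and PDGFRB between 6.55 and 7.44. The 1 probe set used for FGFR3, the hairpins' target, did not bear out the labels. FGFR3 changed on the log2 scale by 0.15, -0.24, 0.42 and 0.16 with doxycycline in the 2-4, 4-1, 6-16 and EGFP lines (limma SE of 0.31), none past the threshold at adjusted p of 0.760 to 1.00. Whether this probe set reads the fusion transcript was not tested. TACC3, the fusion partner, changed by 0.28, 0.32, -0.71 and 0.19 in the same order of lines (SE 0.46), none past the threshold. Arrays of different labels were also closely alike, as given below for UPK1A, and whether each array carries its true label was not tested. Groups are therefore called by their labels only, and every direction given by label rests on them.

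The 250 bases before the transcript start are shown for the member with the largest spread over the arrays (UPK1A), for the only member with AGATAA, a motif of GATA factors, in this window (GRHL3, upstream start) and for the member that departed from the others in 1 set of arrays (KRT20). They are RefSeq sequences of GRCh38.p14 at chr19:35666267-35666516 on the plus strand, chr1:24319107-24319356 on the plus strand and chr17:40885243-40885492 on the minus strand.
UPK1A: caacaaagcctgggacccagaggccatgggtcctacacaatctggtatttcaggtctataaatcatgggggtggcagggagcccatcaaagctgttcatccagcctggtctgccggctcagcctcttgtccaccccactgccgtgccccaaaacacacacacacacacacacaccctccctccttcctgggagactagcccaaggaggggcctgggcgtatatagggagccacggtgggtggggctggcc
GRHL3: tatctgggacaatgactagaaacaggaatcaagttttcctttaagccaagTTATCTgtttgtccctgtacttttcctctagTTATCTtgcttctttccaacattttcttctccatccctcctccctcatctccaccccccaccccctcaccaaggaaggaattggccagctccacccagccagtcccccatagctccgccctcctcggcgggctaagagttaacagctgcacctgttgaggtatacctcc
KRT20: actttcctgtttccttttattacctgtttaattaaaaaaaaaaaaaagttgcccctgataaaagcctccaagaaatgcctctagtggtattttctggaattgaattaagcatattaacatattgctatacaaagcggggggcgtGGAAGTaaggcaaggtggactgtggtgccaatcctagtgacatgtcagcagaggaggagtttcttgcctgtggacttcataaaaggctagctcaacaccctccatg
Capitals mark AGATAA, read as TTATCT on the other strand, in GRHL3 and GGAAGT, a core of motifs of ETS factors, in KRT20. Both strands were searched for these and for TGTTTAC (forkhead factors) and AACCNGTT (grainyhead factors), none of which overlapped another match. RefSeq gave 14 such windows for 8 of the 10 members. AGATAA was found in 1 of the 14 and GGAAGT in 2, against 9.17% and 19.5% of all 35116 windows of this length. TGTTTAC and AACCNGTT were in 0 of the 14, against 2.98% and 1.49%. A match describes the letters only.

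The series design asks which genes change with doxycycline in the FGFR3 hairpin lines but not in the EGFP line. By label, no luminal gene passed limma's test in any line. UPK1A had 10.56, 12.21 and 10.47 with doxycycline in the 2-4 line, against 10.64, 12.84 and 10.01 without it. In the 4-1 line UPK1A had 12.24, 11.29 and 10.54 with doxycycline, against 12.73, 12.08 and 10.44 without it. Each of these groups spans most of the range seen over all arrays, and the groups overlap. In the 6-16 line UPK1A had 10.49, 12.97 and 10.34 with doxycycline, against 10.18, 11.36 and 10.05 without it. In the EGFP line it had 10.51, 10.48 and 12.11 with doxycycline, against 12.13, 11.25 and 12.10 without it. One array in the 6-16 group with doxycycline stood far above the other 2, and 1 array of the EGFP group with doxycycline reached the level of the brightest without it.

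On the log2 scale UPK1A thus changed by -0.08 in the 2-4, -0.39 in the 4-1, 0.74 in the 6-16 and -0.80 in the EGFP line. The limma SE was 0.80 in every line, and the adjusted p was 0.999, 1.00, 0.835 and 0.975 in that order. The sign in each FGFR3 line turned when 1 array was left out. In the 2-4 line the change became 0.76 when replicate 2 without doxycycline was dropped, and 0.18 or 0.22 when replicate 1 or 3 with doxycycline was. In the 4-1 line it became 0.097 when replicate 1 without doxycycline was dropped and 0.016 when replicate 3 with doxycycline was, and in the 6-16 line -0.11 when replicate 2 with doxycycline was.

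Of the transcription factors, GATA3 spanned 13.09 to 13.66 over all arrays. It had 13.25, 13.60 and 13.28 with doxycycline in the 2-4 line, against 13.26, 13.66 and 13.09 without it. In the 4-1 line it had 13.61, 13.32 and 13.23 with doxycycline, against 13.63, 13.52 and 13.21 without it. The groups of both lines overlap almost fully. In the 6-16 line GATA3 had 13.31, 13.65 and 13.26 with doxycycline, against 13.13, 13.34 and 13.10 without it, and in the EGFP line 13.28, 13.26 and 13.46 with doxycycline, against 13.56, 13.32 and 13.56 without it. Its log2 changes ran from -0.14 to 0.22 with an SE of 0.15. FOXA1 spanned 9.34 to 10.32 over all arrays, with differences by doxycycline of -0.01 in the 2-4, -0.11 in the 4-1, 0.20 in the 6-16 and -0.17 in the EGFP line (SE 0.21).

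GRHL3 had wider spreads. It had 7.92, 8.50 and 7.84 with doxycycline in the 2-4 line, against 7.85, 9.67 and 8.19 without it, and in the 4-1 line 8.60, 8.87 and 7.80 with doxycycline, against 9.74, 8.34 and 7.79 without it. In the 6-16 line it had 8.01, 9.76 and 7.99 with doxycycline, against 8.05, 8.86 and 8.06 without it. In the EGFP line it had 7.93, 7.71 and 8.27 with doxycycline, against 8.29, 8.89 and 8.55 without it. The EGFP groups did not overlap, with all values lower with doxycycline. ELF3 likewise did not overlap in the EGFP line, at 10.80 to 11.15 with doxycycline, against 11.19 to 11.29 without it. These were 2 of 10 members in that line, where 10.6% of all genes did not overlap in either direction, and their log2 changes of -0.61 ± 0.52 (SE) and -0.28 ± 0.28 had an adjusted p of 0.975 each. In the 2-4, 4-1 and 6-16 lines 0 members were free of overlap, against 7.43%, 3.79% and 14.3% of all genes.

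**Figure D1:**
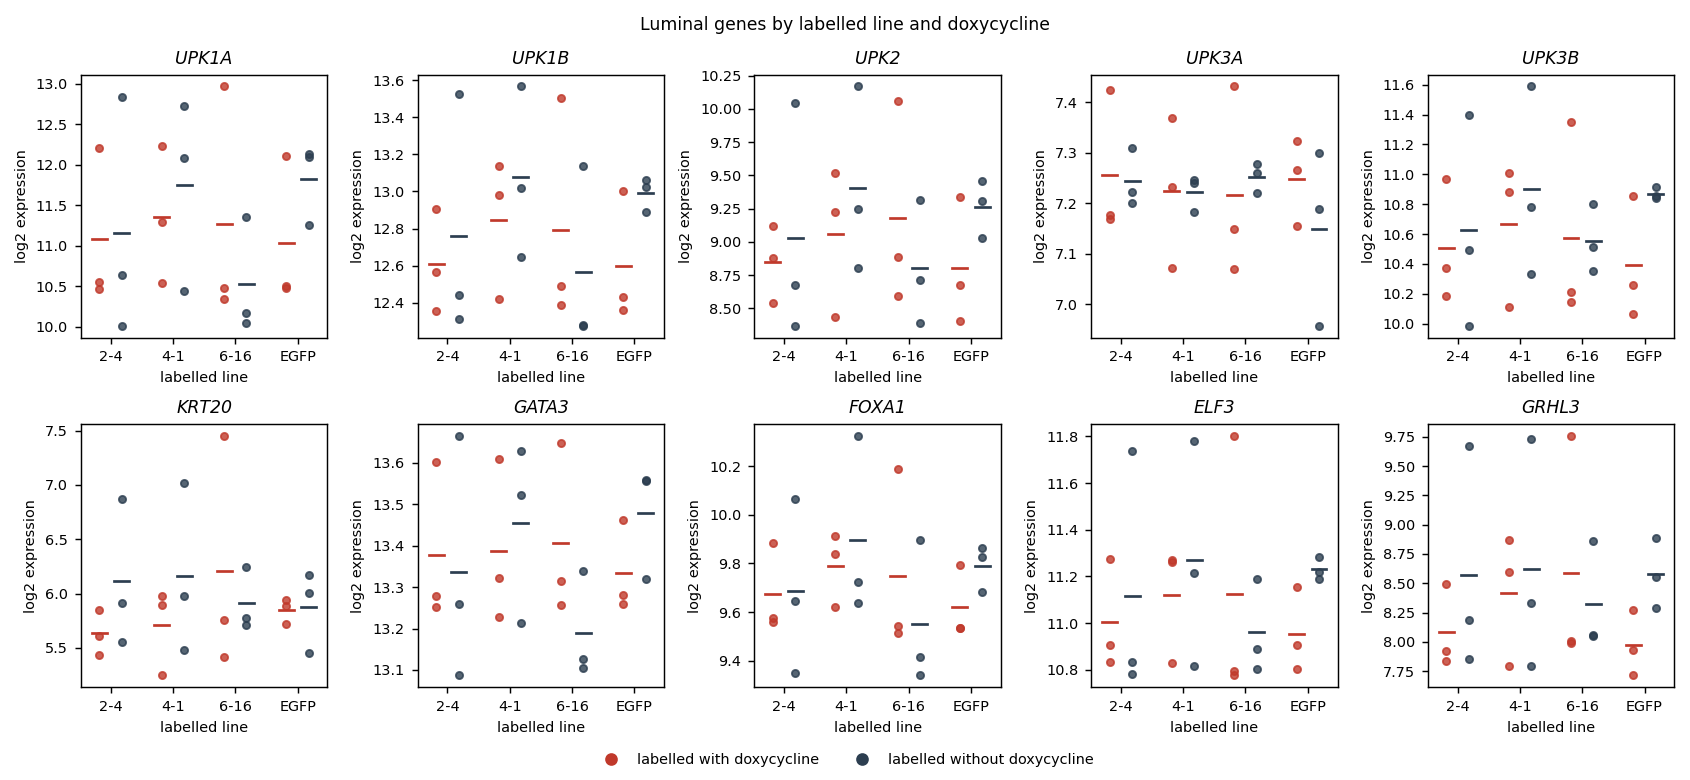
Log2 expression of the 10 luminal genes (vertical axes) by labelled line (horizontal axes), with 3 arrays per group as points and bars at their means, red with and dark without doxycycline. In the 2-4, 4-1 and 6-16 lines the red and dark points of every gene overlap, and single arrays such as the one at 12.97 for UPK1A in the 6-16 line stand apart from the others of their group.

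Over all 10 members, limma called 0 in each of the 4 lines, where it called 0% of the 19775 genes. At an unadjusted p under 0.05 it also gave 0 members in each line, against 2.46%, 1.13%, 7.78% and 2.55% of all genes in the 2-4, 4-1, 6-16 and EGFP lines. The members' changes were above 0 for 2, 1, 9 and 1 of 10 in these lines, with medians of -0.11, -0.22, 0.22 and -0.34. Medians over all genes were -0.01, -0.01, 0.03 and 0.02. KRT20 differed by -0.48 ± 0.44 (SE) in the 2-4 line, by -0.45 ± 0.44 in the 4-1 line, by 0.30 ± 0.44 in the 6-16 line and by -0.03 ± 0.44 in the EGFP line. Differences for UPK1B in the same order of lines were -0.15, -0.23, 0.23 and -0.39 (SE 0.34). Those for UPK2 were -0.18, -0.35, 0.37 and -0.46 (SE 0.44), and those for UPK3B -0.12, -0.24, 0.02 and -0.47 (SE 0.38), none past the threshold.

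The mean change of the 3 FGFR3 lines was set against that of the EGFP line, which it contains with the opposite sign. UPK1A had 0.88 with a 95% interval of -1.04 to 2.81, UPK2 0.41 (-0.66 to 1.47), UPK3B 0.36 (-0.54 to 1.27) and UPK1B 0.34 (-0.48 to 1.16). GRHL3 had 0.47 (-0.78 to 1.71), ELF3 0.24 (-0.42 to 0.91), GATA3 0.21 (-0.16 to 0.57) and FOXA1 0.20 (-0.30 to 0.70), while UPK3A had -0.11 (-0.35 to 0.14) and KRT20 -0.18 (-1.23 to 0.87). Every interval holds 0, and changes up to these bounds in either direction are not set apart from 0. With the mean over both FOXA1 probe sets the FOXA1 value was 0.50. Leaving out 1 array in turn gave 0.60 to 1.42 for UPK1A and 0.20 to 0.67 for UPK2. Both were highest when replicate 3 of the EGFP line with doxycycline was dropped, while UPK2 was lowest without replicate 2 of that group and UPK1A without replicate 2 of the 6-16 line with doxycycline. Limma called 0 members and 0% of all genes, and at an unadjusted p under 0.05 it gave 0 members, against 2.16% of all genes. The F-test for differences among the 3 FGFR3 lines called 0 members and 0% of all genes (member adjusted p of 1.00 each), and at an unadjusted p under 0.05 it gave 0 members, against 3.22% of all genes. Without doxycycline, the FGFR3 lines differed from the EGFP line by -0.68 for UPK1A to 0.18 for KRT20, with 0 members and 0% of all genes called, and 0 members at an unadjusted p under 0.05, against 2.91% of all genes.

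The labelled groups held little of the members' spread. The share of variance between the 8 labelled groups ran from 9.49% for UPK3A to 21.4% for GATA3, against a median of 26.4% over all genes. Part of the variance falls between groups this small even where labels carry no information. How large that part is was not computed, so none of these shares is read as an effect of the labels. For UPK1A the SD within labelled groups was 1.07 and that over all arrays 0.97.

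The arrays were then divided by the level of TACC3, a mitotic spindle gene and the fusion partner of FGFR3 in RT112, with a threshold set in the gap between 11.43 and 11.82. It left 9 arrays below, from 10.49 to 11.43, and 15 above, from 11.82 to 12.62. The nearest arrays on either side were replicate 1 of the EGFP line without doxycycline at 11.43 and replicate 2 of the 6-16 line without doxycycline at 11.82. This division uses values measured on the same arrays and is no treatment group, so what follows is a description with no test. By label, 4 of the 9 arrays were with doxycycline and 5 without, and 3 of the 9 were of the EGFP line.

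Most luminal genes were brighter on the arrays with low TACC3. UPK1A was at 12.08, 12.21 and 12.97 (lowest, median, highest) below the TACC3 threshold, against 10.01, 10.49 and 11.36 above it, a difference of medians of 1.72 or 3.30-fold. The 2 sets of arrays did not overlap. GATA3 was the other member without overlap, at 13.46, 13.60 and 13.66 below the threshold, against 13.09, 13.26 and 13.34 above it. These 2 of 10 members compare with 574 of the 19775 genes (2.9%) that were higher without overlap, and 0 members were lower, against 3.09% of all genes. Of the 10 members 9 had a higher median below the threshold, against 46.3% of all genes, and the members' median difference was 0.49, against -0.01 over all genes.

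Among the other uroplakins, UPK3B was at 10.78, 10.97 and 11.59 below the threshold, against 9.99, 10.33 and 10.88 above it. UPK2 was at 9.03, 9.30 and 10.17 below it, against 8.37, 8.68 and 9.52 above it, and UPK1B at 12.89, 13.02 and 13.57 below it, against 12.28, 12.43 and 13.14 above it. These 3 had differences of medians of 0.64, 0.62 and 0.59, and each overlapped. UPK3A, the partner of UPK1B in plaques, was at 6.96, 7.17 and 7.31 below the threshold, against 7.07, 7.25 and 7.43 above it, a difference of -0.08. Its lack of separation comes with a dim signal.

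Among the factors, GRHL3 was at 8.27, 8.55 and 9.76 below the threshold, against 7.71, 7.99 and 8.89 above it. ELF3 was at 11.15, 11.26 and 11.80 below it, against 10.78, 10.83 and 11.28 above it, and FOXA1 at 9.73, 9.88 and 10.32 below it, against 9.34, 9.56 and 9.90 above it. Their differences of medians were 0.56, 0.43 and 0.33. KRT20 was at 5.25, 5.98 and 7.45 below the threshold, against 5.42, 5.78 and 6.24 above it, so the lowest as well as the highest array had low TACC3.

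**Figure D2:**
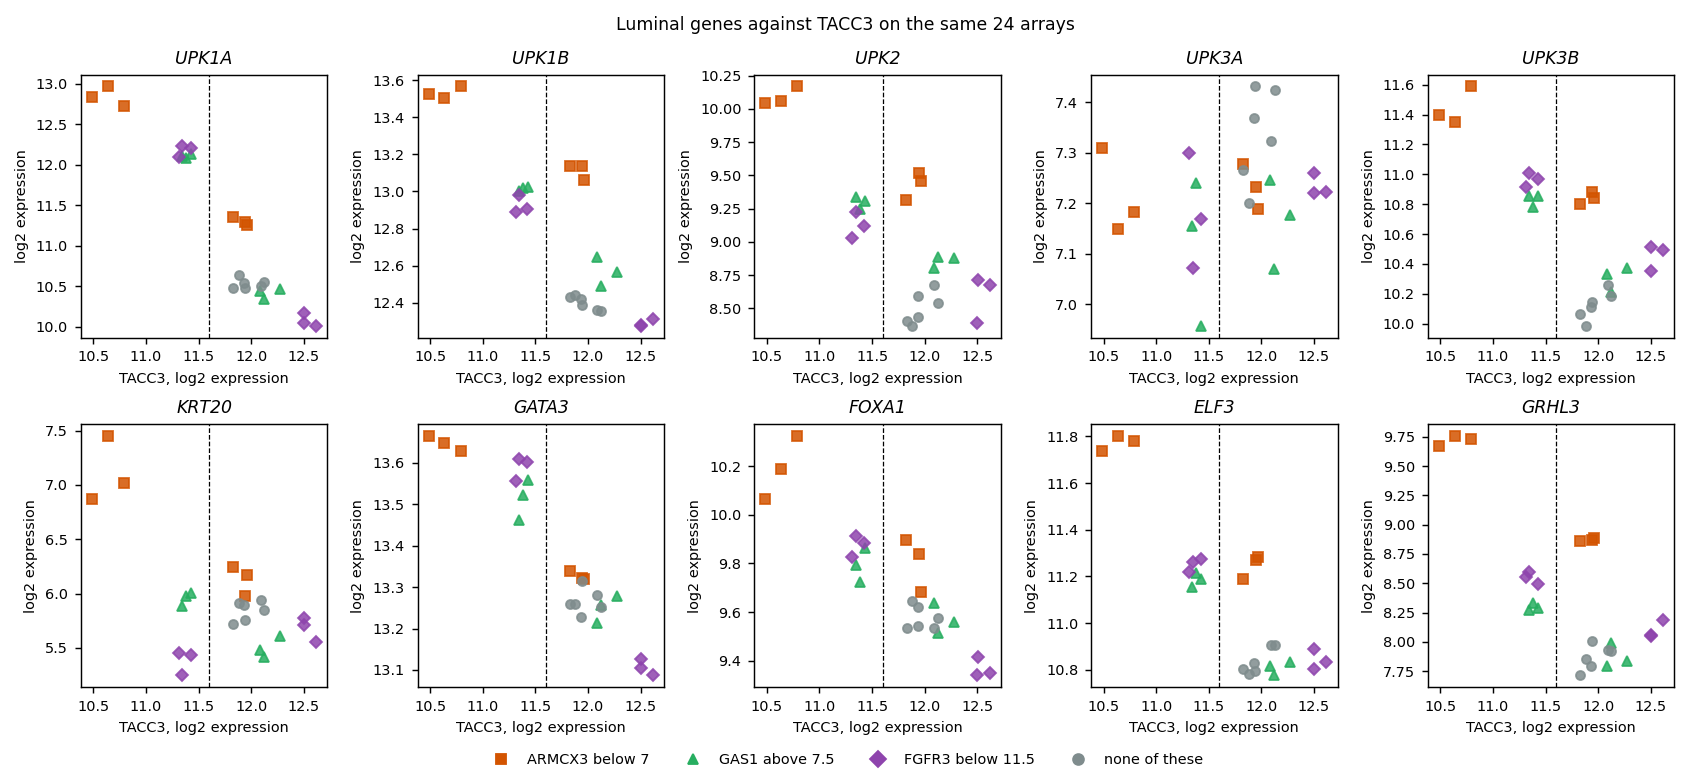
Log2 expression of each luminal gene (vertical axes) against that of TACC3 (horizontal axes) on the 24 arrays, with a dashed line at the threshold. Symbols mark the 6 arrays with low ARMCX3, the 6 with high GAS1, the 6 with low FGFR3 and the 6 with none of these. For UPK1A all 9 arrays left of the line lie above all 15 to its right, while UPK3A shows no such separation.

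The points in the plots against TACC3 fall into tight clusters, so no correlation over the arrays is given. The clusters can be told by 3 genes. ARMCX3, a mitochondrial outer membrane protein gene, was at 4.25 to 4.93 on 6 arrays. GAS1, a cell surface protein gene, was at 8.52 to 9.47 on another 6, and FGFR3, bright on all arrays, was at 11.13 to 11.43 on another 6, against 11.83 to 12.34 on the rest. These sets were also read from the data and are not the study's groups. Each held 3 arrays below and 3 above the TACC3 threshold, and the remaining 6 arrays all lay above it. Within such a triplet UPK1A spanned only 0.05 to 0.24. In 5 of the 6 triplets all 3 arrays carry different labels, and in the FGFR3 set with high TACC3 2 of the 3 share one.

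Within each set, 8 members were higher on the 3 arrays with low TACC3 than on the 3 with high TACC3, with no overlap in any of the 3 sets. They were UPK1A, UPK1B, UPK2, UPK3B, GATA3, FOXA1, ELF3 and GRHL3, where 7.63% of all genes met the same rule and 6.67% the opposite one. Taken singly, the ARMCX3 set had 9 members higher and 0 lower without overlap, against 21.8% and 14.2% of all genes. The GAS1 set had 9 higher and 0 lower, against 14.2% and 19.2%, and the FGFR3 set 8 higher and 1 lower, against 24.1% and 20.9%. UPK1A had 12.73 to 12.97 with low TACC3, against 11.25 to 11.36 with high TACC3, in the ARMCX3 set. In the GAS1 set it had 12.08 to 12.13 with low TACC3, against 10.34 to 10.47 with high TACC3, and in the FGFR3 set 12.10 to 12.24, against 10.01 to 10.18. The differences of medians were 1.55, 1.67 and 2.16, and the 6 arrays of no set, all with high TACC3, had 10.48 to 10.64. UPK1A thus separated in every set, by 2.92-fold to 4.48-fold.

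The factors differed less, and in a set-dependent order. GRHL3 had 9.67 to 9.76 with low TACC3, against 8.86 to 8.89 with high TACC3, in the ARMCX3 set, a difference of medians of 0.87, and differences of 0.45 and 0.49 in the GAS1 and FGFR3 sets. ELF3 had differences of 0.51, 0.37 and 0.43 in the ARMCX3, GAS1 and FGFR3 sets, GATA3 of 0.33, 0.27 and 0.50, and FOXA1 of 0.35, 0.23 and 0.54. For UPK1B they were 0.39, 0.45 and 0.63, for UPK2 0.61, 0.42 and 0.44, and for UPK3B 0.56, 0.52 and 0.48. Whether the sets differ in these sizes was not tested.

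KRT20 went opposite ways. It had 6.87 to 7.45 with low TACC3, against 5.98 to 6.24 with high TACC3, in the ARMCX3 set, and 5.88 to 6.00, against 5.42 to 5.61, in the GAS1 set. In the FGFR3 set it had 5.25 to 5.46 with low TACC3, against 5.56 to 5.78 with high TACC3, a difference of medians of -0.28 on a dim signal. UPK3A overlapped in all 3 sets, with differences of -0.05, -0.02 and -0.05.

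**Figure D3:**
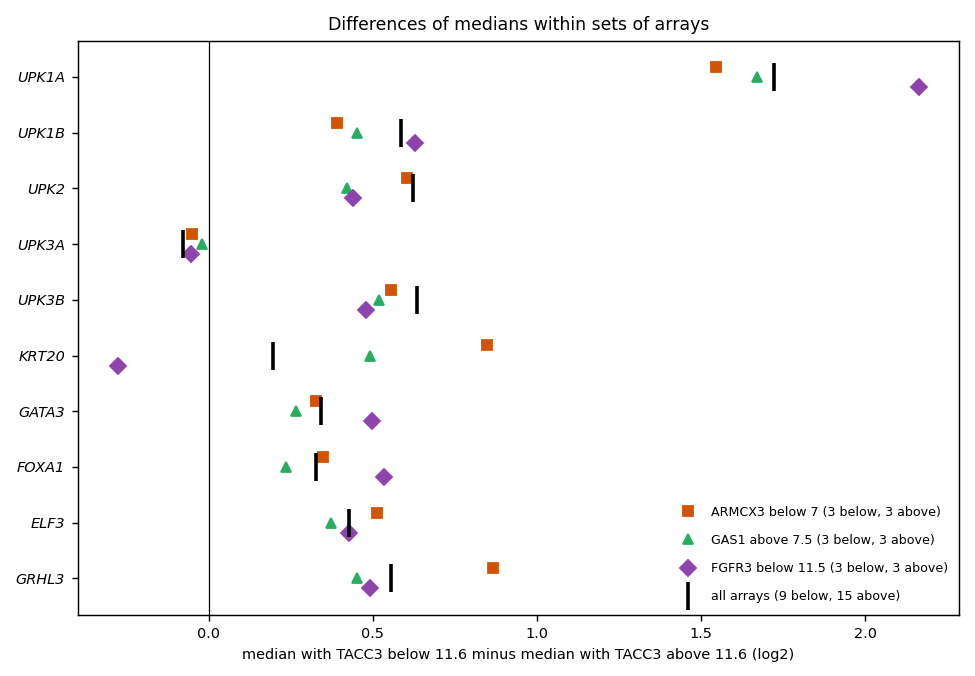
Difference between the median log2 level on arrays with low TACC3 and that on arrays with high TACC3 (horizontal axis) for each luminal gene (rows), within each of 3 sets of 6 arrays (coloured symbols) and over all 24 arrays (black ticks). UPK1A lies at 1.55 to 2.16 within the sets, 7 other genes between 0.23 and 0.87, UPK3A near 0, and KRT20 runs from -0.28 to 0.85.

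The ARMCX3 set was also higher at equal TACC3 side. With high TACC3, its 3 arrays had UPK1A at 11.25 to 11.36, against 10.01 to 10.64 on the other 12 arrays. GRHL3 was at 8.86 to 8.89 on them, against 7.71 to 8.19, and UPK1B at 13.06 to 13.14, against 12.28 to 12.65. The arrays with high TACC3 on which UPK1B, UPK2, UPK3B, FOXA1, ELF3 and GRHL3 overlapped the low TACC3 arrays were all of this set. The brightest 3 arrays of every member except UPK3A were the low TACC3 arrays of this set, labelled as replicate 2 of 2-4 without, replicate 1 of 4-1 without and replicate 2 of 6-16 with doxycycline. All 3 were among the arrays that turned the sign of UPK1A when left out.

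A sign of RNA quality moved with the division. The excess of 3' over 5' signal for GAPDH was 0.28 to 0.42 on arrays with low TACC3, against 0.20 to 0.29 on those with high TACC3, and for ACTB 0.79 to 1.17, against 0.70 to 0.97. In the ARMCX3 set the GAPDH excess was 0.37 to 0.42 with low TACC3, against 0.26 to 0.29, in the FGFR3 set 0.35 to 0.38, against 0.22 to 0.29, and in the GAS1 set 0.28 to 0.33, against 0.20 to 0.27. Its part in the result was not tested. Markers of other cells did not separate as lists. The mean log2 level of 5 measured leukocyte genes was 6.40 to 6.68 with low TACC3, against 6.40 to 6.75 with high TACC3, that of 6 fibroblast genes 8.59 to 8.73, against 8.51 to 8.67, and that of 3 endothelial genes 8.14 to 8.41, against 8.23 to 8.52. LUM alone among these 14 genes was higher without overlap in each of the 3 sets, at 13.26 to 13.56 over all arrays with low TACC3, against 12.84 to 13.36. In RNA from whole cultures, more cells of a luminal state and more RNA of these genes per cell cannot be told apart.

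Other genes of the luminal programme are given from lists chosen with earlier results of these data known. By label, limma called 0 genes of any list in the mean doxycycline change of the FGFR3 lines minus that of the EGFP line. By TACC3, where 7.63% of all genes were higher and 6.67% lower without overlap in each of the 3 sets, 8 of 17 measured luminal transcription factor genes, the 4 members included, were higher without overlap in each of the 3 sets and 0 were lower, with a median difference of 0.32. The others were KLF5, EHF, GRHL1 and TBX3. TBX3, a T-box factor, was at 10.39, 10.59 and 11.08 with low TACC3, against 9.46, 9.98 and 10.11 with high TACC3. EHF, an ETS factor related to ELF3, was at 12.60, 12.71 and 12.96 with low TACC3, against 12.22, 12.35 and 12.59. PPARG, the nuclear receptor of the luminal programme, went another way, at 10.39, 10.54 and 11.05 with low TACC3, against 10.69, 10.90 and 11.07. This depended on the set. PPARG was lower without overlap in the GAS1 and FGFR3 sets, with differences of -0.450 and -0.425, but overlapped in the ARMCX3 set at 0.045.

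Of 25 luminal and superficial marker genes, 15 were higher and 3 lower in each of the 3 sets without overlap, against 7.63% and 6.67% of all genes, with a median difference of 0.20. SCNN1B, a subunit of the epithelial sodium channel, was at 9.02, 9.81 and 10.68 with low TACC3, against 7.43, 8.29 and 8.91 with high TACC3. RAB27B, a small GTPase that takes part in uroplakin vesicle delivery, was at 11.81, 11.94 and 12.04 with low TACC3, against 11.18, 11.32 and 11.62. Neither overlapped. The 3 that were lower were KRT18, a keratin of simple epithelia, TSPAN1 and FABP4, a lipid chaperone and PPARG target. The keratin genes KRT7 and KRT8 were lower without overlap in the GAS1 and FGFR3 sets and overlapped in the ARMCX3 set. Their differences of medians over all arrays were -0.37 and -0.46, while KRT19 was higher without overlap in each set. FABP4 was at 9.50, 9.69 and 12.13 with low TACC3, against 11.77, 12.69 and 13.30, a difference of medians of -3.01. By label, the mean doxycycline change of FABP4 in the FGFR3 lines minus that in the EGFP line was -1.27 ± 1.21 (SE).

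Among tight junction and surface barrier genes, 6 of 12 measured were higher in each set without overlap and 0 lower, against 7.63% and 6.67% of all genes. CLDN8, a claudin of tight junctions, was at 10.26, 10.80 and 11.64 with low TACC3, against 8.13, 8.54 and 9.94 with high TACC3. By label, its mean doxycycline change in the FGFR3 lines minus that in the EGFP line was 1.25 ± 1.16 (SE). Basal urothelial genes gave 1 higher and 3 lower of 11 measured, against the same shares of all genes, with a median difference of -0.01. KRT5, the basal keratin, was at 10.24, 11.13 and 11.87 with low TACC3, against 11.23, 11.90 and 12.49, and LAMB3, a laminin chain, was the 1 higher, with a difference of medians of 0.95. The 3 lower basal genes were KRT5, CD44 and ITGB4. In the ARMCX3, GAS1 and FGFR3 sets KRT5 had differences of medians of -0.84, -0.65 and -1.10. CD44 had -0.46, -0.24 and -0.20, and ITGB4 -0.51, -0.23 and -0.14. The medians of the luminal factor, luminal marker and barrier lists were above that of all genes at -0.01. That of the basal list was close to it, although these 3 genes were lower in each set.

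**Figure D4:**
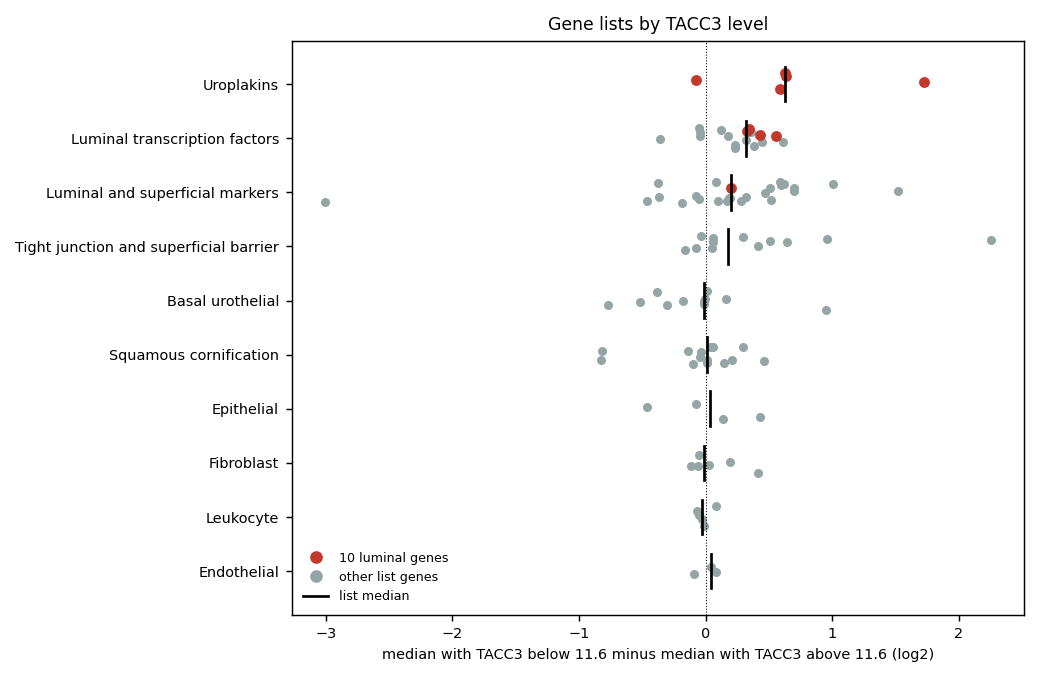
Difference between the median log2 level on arrays with low and with high TACC3 (horizontal axis) for each measured gene of 10 lists (rows), with the 10 luminal genes in red and a black bar at each list's median. Uroplakins have the largest list median at 0.62, and FABP4 lies farthest left at -3.01.

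The genes whose pattern over the 24 arrays was most like that of each member were found by Pearson's r among 1714 other genes that spanned over 1 log2 unit. For UPK1A they were DHRS2 (r = 0.99) and MUC20 (0.98), for UPK1B NEBL (0.98) and ASAH1 (0.98), for UPK2 TIMP3 (0.97) and GKN1 (0.96), and for UPK3B SPINT1 (0.99) and LAMB3 (0.97). For GATA3 they were KRT15 (0.98) and REL (0.98), for FOXA1 DOCK8 (0.97) and BAG1 (0.97), for ELF3 LAMB3 (0.98) and ARHGAP26 (0.98), and for GRHL3 CRYBG2 (0.98) and IL1RN (0.98). KRT20 was most like CLCA2 (0.92) and PLA2G2A (0.90), and UPK3A like PLAAT3 (0.67) and GPX3 (0.65), the lowest of the 10 members. These values describe likeness over arrays that fall into clusters and carry no test.

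Other probe sets of the members gave like differences by TACC3. For GATA3 the 3 probe sets had 0.34, 0.38 and 0.43, and for UPK1B the 2 had 0.55 and 0.59. For ELF3 the 3 had 0.27 to 0.43 and for FOXA1 the 2 had 0.33 and 0.33. The dimmer FOXA1 probe set overlapped more, at 7.79 to 8.73 with low TACC3, against 6.44 to 8.55 with high TACC3. So did both dimmer ELF3 probe sets, at 9.90 to 10.99 with low TACC3, against 9.83 to 10.44, and at 9.17 to 10.20, against 9.02 to 9.71.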

How the data were processed

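The authors deposited 1 log2 value per array for each of 54675 probe sets on 24 arrays. Per the submitters' processing notes they used RMA and affy; versions and the probe grouping are not given in the sources used here. Quantile normalization removes changes shared by most genes, so differences are relative to other genes. Arrays give no read counts. Probe sets with 1 symbol in GEO's platform annotation (41097) were kept, giving 19775 genes by the probe set of highest mean; another 1801 with several symbols and 11777 without one were dropped. Limma 3.58.1 in R 4.3.3 held 1 coefficient per labelled group, with 16 residual degrees of freedom, and p-values were Benjamini-Hochberg adjusted over all genes with a threshold of 0.05. The fit was tested on simulated data. SE and intervals are moderated. Same-numbered arrays with and without doxycycline correlated from -0.53 to 0.61 in their deviations, over 0.1 in 9 of 12 pairs. The main fit did not take the numbers as pairs, although most of these values were positive. A fit with the replicate number as a block was run as an alternative. That block was shared by all lines, so arrays were not paired within a line in any fit. The members, lists and the TACC3 threshold were chosen with earlier results of these data known. Named are the members, TACC3, FGFR3, for each list the gene whose doxycycline change differed most between the FGFR3 and EGFP lines, and for each member the 2 genes most like it. ARMCX3, GAS1 and other list genes were chosen after their values were seen. For the TACC3 division lowest, median and highest are given without a test. Correlations with TACC3 and between members, planned at first, are not given, because the arrays fall into clusters. No coordinates of probe sets are given, because no genome build is named.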

Additional observations from a re-analysis of the deposited data

How the results depend on the processing

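Limma called 0 genes in each line and in the difference between FGFR3 and EGFP lines under every alternative run, except in the 6-16 line, with 1291 genes under array weights, 1 with the replicate block and 1 with only the 6 arrays of the line. Under the alternatives, changes by line were read only for members spanning over 1 log2 unit, so not for UPK3A, GATA3 and FOXA1. None of the members read by line had an adjusted p under 0.05 under any alternative. In the difference between the FGFR3 and EGFP line changes none did either. Every member was read there, except KRT20 and UPK3A under the filter on dim genes. With 1 array left out in turn the counts of called genes were all 0. Whether the line changes of UPK3A, GATA3 and FOXA1 then turn sign was not tested. Among the members read by line, those that turned sign are given with their ranges. In the 2-4 line the range was -0.658 to 0.755 for UPK1A, -0.375 to 0.234 for UPK1B and -0.511 to 0.324 for UPK2. It was -0.436 to 0.269 for UPK3B, -0.28 to 0.198 for ELF3 and -0.844 to 0.0635 for GRHL3. The range was, in the 4-1 line UPK1A -1.05 to 0.0966, UPK1B -0.446 to 0.0139, UPK2 -0.649 to 0.0348, UPK3B -0.52 to 0.107, ELF3 -0.379 to 0.103 and GRHL3 -0.615 to 0.357. The range was, in the 6-16 line UPK1A -0.113 to 1.2, UPK1B -0.124 to 0.517, UPK2 -0.067 to 0.666, UPK3B -0.375 to 0.228, KRT20 -0.321 to 0.693, ELF3 -0.176 to 0.337 and GRHL3 -0.321 to 0.56. The range was, in the EGFP line KRT20 -0.239 to 0.117. The KRT20 difference between the FGFR3 and EGFP line changes ran from -0.388 to 0.0281. With array weights the sign turned in the 2-4 line for UPK1A (0.169), UPK1B (0.0287), UPK2 (0.164), UPK3B (0.177) and ELF3 (0.049), in the 6-16 line for UPK2 (-0.0147), UPK3B (-0.3), KRT20 (-0.0414), ELF3 (-0.0751) and GRHL3 (-0.0972), and in the EGFP line for KRT20 (0.104). With array medians set equal, UPK3B in the 6-16 line was -0.0379. The cause was not tested. KRT20 and UPK3A were left out by the filter on dim genes. By TACC3, the KRT20 difference was -0.276 within the FGFR3 set, an alternative chosen after seeing the data. Other settings for the correlation with TACC3 were not run, because no correlation is given. UPK1A had an SD of 1.07 within labelled groups, against a span of 0.05 to 0.24 within triplets of like arrays. The dim signals of UPK3A and KRT20 limit what their values show.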

Other observations

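Some squamous and mucosal genes also separated by TACC3. KRT13 and KRT4, keratins of stratified mucosal epithelia, were at 14.25, 14.31 and 14.50 and at 13.05, 13.07 and 13.23 on arrays with low TACC3, against 13.91, 14.02 and 14.14 and against 12.44, 12.62 and 12.72 on arrays with high TACC3, and neither gene overlapped. S100A9, a calcium-binding protein of inflamed and squamous epithelia, was at 11.94, 12.42 and 12.54 with low TACC3, against 13.05, 13.24 and 13.48 with high TACC3. In the squamous list as a whole 2 of 14 measured genes were higher and 1 lower in each of the 3 array sets, near the 7.63% and 6.67% of all genes, with a median difference of 0.01. Among epithelial genes CDH1, which encodes E-cadherin, was at 12.76, 12.96 and 13.07 with low TACC3, against 12.46, 12.54 and 12.65 with high TACC3. EPCAM and ESRP1 overlapped. KRT8 overlapped but went the other way, at 11.87, 12.01 and 12.59 with low TACC3, against 12.25, 12.47 and 12.78. Of 4 measured epithelial genes, 1 was higher and 0 lower without overlap in each of the 3 sets, against 7.63% and 6.67% of all genes. The list's median difference was 0.03. All these genes were chosen after their values were seen except S100A9 and KRT8. By label, the mean doxycycline change in the FGFR3 lines minus that in the EGFP line was -0.52 ± 0.46 (SE) for S100A9 and -0.20 ± 0.24 for KRT8. In the same comparison VWF, CD79A and LUM had -0.13 ± 0.09, -0.24 ± 0.12 and 0.21 ± 0.21, none past the threshold.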
